A study of Mus musculus with 38 samples.

Results

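Oxidative phosphorylation, the mitochondrial machinery that turns food energy into ATP, was described here through 98 genes out of 19218 measured in mouse tail skin. They were chosen by gene symbol alone: symbols starting with Nduf (the assembly factors named Ndufaf were left out), Uqcr, Cox4 to Cox8 or Atp5, the 4 Sdh genes, and the protein genes of the mitochondrial genome. Of the 98, 85 are encoded in the nucleus (38 of complex I, 4 of complex II, 8 of complex III, 19 of complex IV and 16 of complex V) and 13 in mitochondrial DNA. The classes follow the symbols, so Ndufa4 is counted with complex I although its protein is found in complex IV. The rule itself uses no measured values, but it was set with earlier results of these data known.

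The study profiled bulk RNA of tail skin in 38 libraries of 6 groups. The vitiligo group (9 libraries) came from mice in which vitiligo, the loss of skin melanocytes, was induced; the no-induction group (9 libraries), labelled wild type, was not induced. Antibiotics (ABX), used to deplete the gut microbes, were given to further mice without induction (no-induction ABX, 6 libraries) and with it (vitiligo ABX, 6 libraries). Wild-type mice injected intraperitoneally with vehicle (3 libraries) or with hippuric acid (5 libraries), a glycine conjugate of benzoic acid whose benzoate comes largely from gut bacteria, formed the last pair of groups. The labels used here give no sex, age, strain or dose, and nothing in them says that the libraries of a group came from separate mice, so the p-values measure the spread between libraries, which may be technical in part.

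Complex I (NADH dehydrogenase) and complex II (succinate dehydrogenase) pass electrons to ubiquinone, complex III (cytochrome bc1) passes them on to cytochrome c, and complex IV (cytochrome c oxidase) gives them to oxygen; the proton gradient built by complexes I, III and IV drives complex V, the ATP synthase. Complex II is the only one of them made wholly from nuclear genes, while the others join a few subunits made inside the mitochondrion to many imported ones, of which some carry the redox centres and others surround that core. Skin mitochondria are a known source of reactive oxygen species, and melanocytes in vitiligo are known for their sensitivity to oxidative stress.

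Promoters of 4 nuclear members named in the results are shown because nuclear respiratory genes are textbook targets of shared factors. RefSeq promoters (build GRCm38.p6, 250 bases before to 50 bases after the annotated start) were found for 67 of the 85 nuclear members. Both strands were searched for the core of the nuclear respiratory factor 1 motif (GCGCATG), an ETS motif of the kind bound by GABP (CCGGAAG), a YY1 motif (ATGGCGG), the core site of the oestrogen-related receptors (AAGGTCA) and a TATA box (TATAAA). Capitals mark matches. The promoter of Sdhd, a complex II subunit that, like Sdha, was called higher with vitiligo induction, lies at chr9:50603800-50604099 on the minus strand. That of Cox8a, the subunit of complex IV used in skin, lies at chr19:7217567-7217866 on the minus strand. Its muscle-type paralogue Cox8b, called lower in both antibiotic comparisons at levels of at most 1.89 CPM, has its promoter at chr7:140900397-140900696 on the minus strand. Atp5k, an ATP synthase subunit that fell most among complex V members with hippuric acid, has its promoter at chr5:108434350-108434649 on the minus strand.
Sdhd: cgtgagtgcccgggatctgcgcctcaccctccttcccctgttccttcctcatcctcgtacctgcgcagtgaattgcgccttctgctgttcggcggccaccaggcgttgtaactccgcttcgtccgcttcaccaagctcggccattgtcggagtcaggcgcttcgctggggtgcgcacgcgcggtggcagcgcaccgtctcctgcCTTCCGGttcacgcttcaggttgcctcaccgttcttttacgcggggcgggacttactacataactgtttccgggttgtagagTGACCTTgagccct
Cox8a: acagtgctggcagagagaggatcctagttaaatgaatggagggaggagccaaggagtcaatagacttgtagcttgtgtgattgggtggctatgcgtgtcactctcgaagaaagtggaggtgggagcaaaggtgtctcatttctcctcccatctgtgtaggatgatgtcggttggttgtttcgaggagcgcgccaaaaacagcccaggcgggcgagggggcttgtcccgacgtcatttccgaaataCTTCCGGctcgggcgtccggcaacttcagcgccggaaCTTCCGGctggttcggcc
Cox8b: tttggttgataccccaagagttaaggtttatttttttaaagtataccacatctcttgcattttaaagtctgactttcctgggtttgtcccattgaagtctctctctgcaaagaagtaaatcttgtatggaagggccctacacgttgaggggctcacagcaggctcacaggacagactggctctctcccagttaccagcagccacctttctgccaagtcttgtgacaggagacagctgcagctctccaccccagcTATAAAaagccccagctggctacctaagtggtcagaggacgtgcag
Atp5k: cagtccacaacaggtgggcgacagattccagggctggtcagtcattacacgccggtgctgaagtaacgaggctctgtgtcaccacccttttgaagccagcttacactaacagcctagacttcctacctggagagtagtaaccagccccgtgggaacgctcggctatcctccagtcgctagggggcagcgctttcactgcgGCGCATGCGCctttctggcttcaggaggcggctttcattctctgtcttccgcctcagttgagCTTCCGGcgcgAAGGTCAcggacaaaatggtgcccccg
The Sdhd promoter held 1 ETS match and 1 receptor core site, and that of Cox8a held 2 ETS matches. In the Atp5k promoter, matches to the NRF1 core on either strand overlapped, beside 1 ETS match and 1 receptor core site, while Cox8b held a TATA match, 5 bases past the start, and none of the other 4 motifs. A gene was counted when any of its promoters of this length held a match. Among the 67 members with a promoter, the NRF1 core was found in 12 (17.9%, against 4.41% of all 27025 genes with one) and the ETS motif in 15 (22.4% against 9.93%). The YY1 motif was found in 10 (14.9% against 4.69%), the receptor core site in 8 (11.9% against 5.38%), and the TATA box in 7 (10.4% against 15.7%). A match describes letters in the window and says nothing of binding in these samples.

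The deposited estimated counts summed to between 15341831 and 27920844 per library. Levels are given as CPM, a gene's counts scaled to one common library size with factors from the trimmed mean of M values (TMM). A gene was called changed when edgeR's quasi-likelihood test gave a Benjamini-Hochberg adjusted p under 0.05 over all genes tested in that comparison, and log2 fold changes are given with their standard errors. Keratinocyte and fibroblast transcripts were present in all 38 libraries (summed CPM of 9 keratinocyte genes at least 12175 and of 6 fibroblast genes at least 3967). Y-linked transcripts were found in 3 libraries that stood apart from the rest (no-induction 011 and 012, vehicle 001), and the intestinal transcript Fabp2 at 1 CPM or more in 5 (vitiligo 000 and 260, no-induction 011 and 012, vehicle 001); counts without them are given beside the results they changed.

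Transcripts of the 13 mitochondrial genes took a median of 3.85% of all counts in no-induction skin, against 0.831% for all 85 nuclear members together. Per kilobase of transcript, the mean level over the 38 libraries was highest for mt-Co1 (9201 CPM per kb), the catalytic subunit of complex IV, and lowest among the mitochondrial genes for mt-Nd4l (353 CPM per kb). Nuclear levels were far lower. Among complex II genes, Sdhc, one of the membrane anchors, was lowest with 25.9 CPM per kb of its principal transcript. Ndufa4 led the Nduf genes with 272 CPM per kb. Uqcrh, the hinge protein of complex III, had 238 CPM per kb and Uqcrb had 189. Cox4i1, the ubiquitous form of a large nuclear subunit of complex IV, reached 358 CPM per kb and Cox8a 257. Atp5b, the catalytic beta subunit of ATP synthase, reached 401 CPM per kb.

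Isoforms of other tissues were near or at 0. The muscle form Cox6a2 never exceeded 0.409 CPM, the testis forms Cox8c and Cox7b2 reached at most 0.245 and 0 CPM, and Cox7a1 and Cox8b, the heart and muscle forms, at most 1.40 and 1.89 CPM. Ndufb11b (at most 0.0537 CPM) and the pseudogene Cox5b-ps (at most 0.0593 CPM) were also too low to test. The low-count filter left 80 nuclear members in the comparisons among the uninduced and induced mice and 78 where Cox7a1 and Cox8b also failed it (vitiligo ABX against no-induction ABX, and hippuric acid against vehicle). All 13 mitochondrial genes were tested throughout.

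Averaged over the members of a class as log2(CPM + 1), the nuclear level had a median of 5.80 in no-induction skin (5.58 to 6.02 over libraries) and 5.81 in vitiligo skin (5.71 to 6.16). It was lower with antibiotics, at 5.50 (5.35 to 5.76) without induction and 5.51 (5.40 to 5.88) with it. With hippuric acid the median was 5.30 (5.25 to 5.33), below each vehicle library (5.56, 5.66 and 6.01). The mitochondrially encoded level ranged from 9.87 to 11.25 over all groups, and its medians (10.40 to 10.65) lay closer together than the libraries of any of the no-induction, vitiligo or vehicle groups. The difference between mitochondrial and nuclear levels had its highest group median with hippuric acid (5.11) and its lowest with vehicle (4.43).

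**Figure D1:**
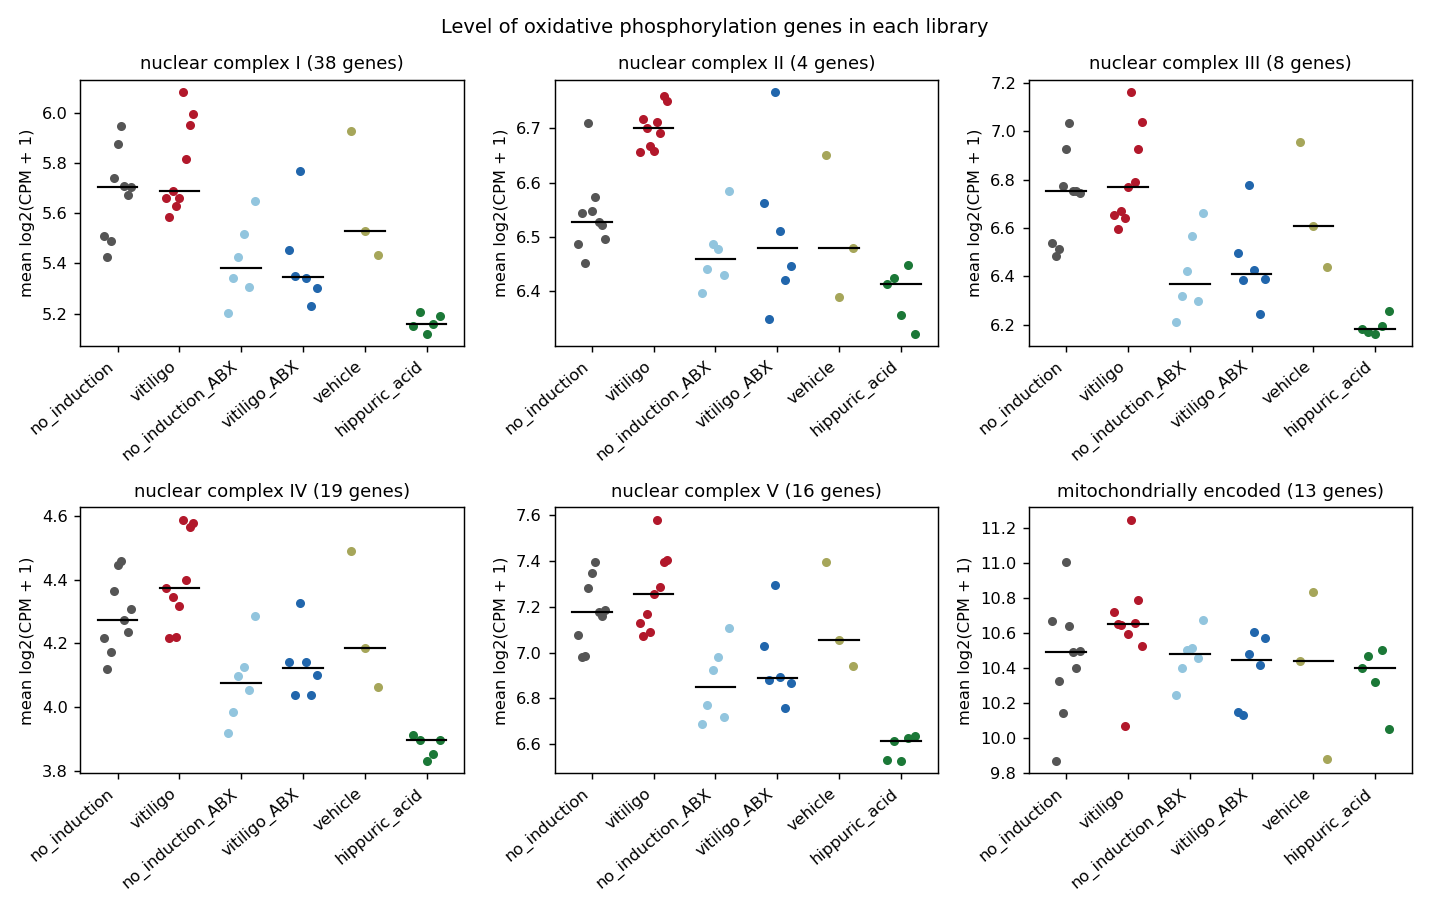
Mean log2(CPM + 1) of the members of each complex and of the mitochondrially encoded genes (y axes, log2 units) in each of the 38 libraries, by group (x axis), with bars at the group medians. For complex II the vitiligo libraries sit at 6.66 to 6.76, against 6.45 to 6.71 without induction, and in the other nuclear classes the hippuric acid libraries lie lowest or near lowest.

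Vitiligo induction against no induction asks what the disease model changed in skin. Among the respiratory genes, edgeR called 2, Sdha and Sdhd of complex II, both higher. Of all genes tested, 7.74% were called (5.27% higher, 2.47% lower); the members' 2 of 80 nuclear and 0 of 13 mitochondrial genes lie below that background. Complex II was not tested against the other complexes. Sdha, the flavoprotein that oxidises succinate, ranged from 157 to 178 CPM (median 172) without induction and from 186 to 226 CPM (median 194) with it. The 2 groups did not overlap, and the log2 fold change was 0.23 ± 0.05 (adjusted p = 0.00811). Of nuclear members 1.25% lay wholly above in this way, against 0.694% of all genes tested. Sdhd, a membrane anchor that binds ubiquinone, ranged from 55.6 to 77.1 CPM (median 62.8) without induction and from 69.6 to 88.2 CPM (median 79.9) with it. Its groups overlapped, and the log2 fold change was 0.31 ± 0.07 (adjusted p = 0.0078). The other two complex II genes were not called. Sdhb, the iron-sulfur subunit between them, had a median of 78.6 CPM without and 83.8 CPM with induction (0.14 ± 0.06, adjusted p = 0.153). For the anchor Sdhc these medians were 87.3 and 86.9 CPM (0.05 ± 0.05, adjusted p = 0.565).

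None of the 37 complex I, 8 complex III, 15 complex IV and 16 complex V members tested was called with vitiligo induction. In edgeR, unadjusted p-values under 0.05 were found for 5 of complex I, 0 of complex III, 3 of complex IV and 3 of complex V, all 4 classes having positive medians (0.16, 0.12, 0.21 and 0.11). Examples by complex were Ndufb3, an accessory subunit of complex I (0.20 ± 0.08, adjusted p = 0.111), Uqcrh (0.15 ± 0.10, adjusted p = 0.35), Cox7a2, the common form of a small complex IV subunit (0.23 ± 0.08, adjusted p = 0.0917), and Atp5g3, which encodes the c subunit of the ATP synthase rotor (0.20 ± 0.07, adjusted p = 0.0985). Positive log2 fold changes were obtained for 75 of 80 nuclear members (median 0.15, range -0.10 to 0.53) and for 13 of 13 mitochondrial genes (median 0.25, range 0.09 to 0.35), while the median over all genes was 0.01. The largest mitochondrial value was that of mt-Nd4, a proton-pumping membrane subunit of complex I, whose level ran from 1391 to 3218 CPM (median 2110) without induction and from 1958 to 3894 CPM (median 2703) with it (0.35 ± 0.14, adjusted p = 0.121). In edgeR, 4 mitochondrial genes had an unadjusted p under 0.05. The mitochondrial median was 0.14 without vitiligo 001, and 0.01 and -0.07 with the length and GC offsets from the union of exons and from principal transcripts.

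All 12 adipocyte marker genes rose in the same comparison, with summed levels of 654 to 2024 CPM without and 2765 to 7567 CPM with induction; their part in the result was not tested. Without the 2 no-induction libraries that carry Y-linked transcripts, 7 nuclear members and 1 mitochondrial gene were called higher (9.86% of all genes were called). Without the 4 vitiligo and no-induction libraries that carry the gut transcript, 1 nuclear member was called and Sdha was not (0.17, adjusted p = 0.0861). In that fit 3.7% of all genes were called. With an offset for gene length and GC content, 54.0% of all called genes were higher, against 68.0% without it. DESeq2, which called 12.6% of all genes, called 2 nuclear members, both of complex II, and 0 mitochondrial genes. In limma-voom, which called 42.4% of all genes, 21 nuclear members (0 of complex III) and 4 mitochondrial genes were called, all higher.

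**Figure D2:**
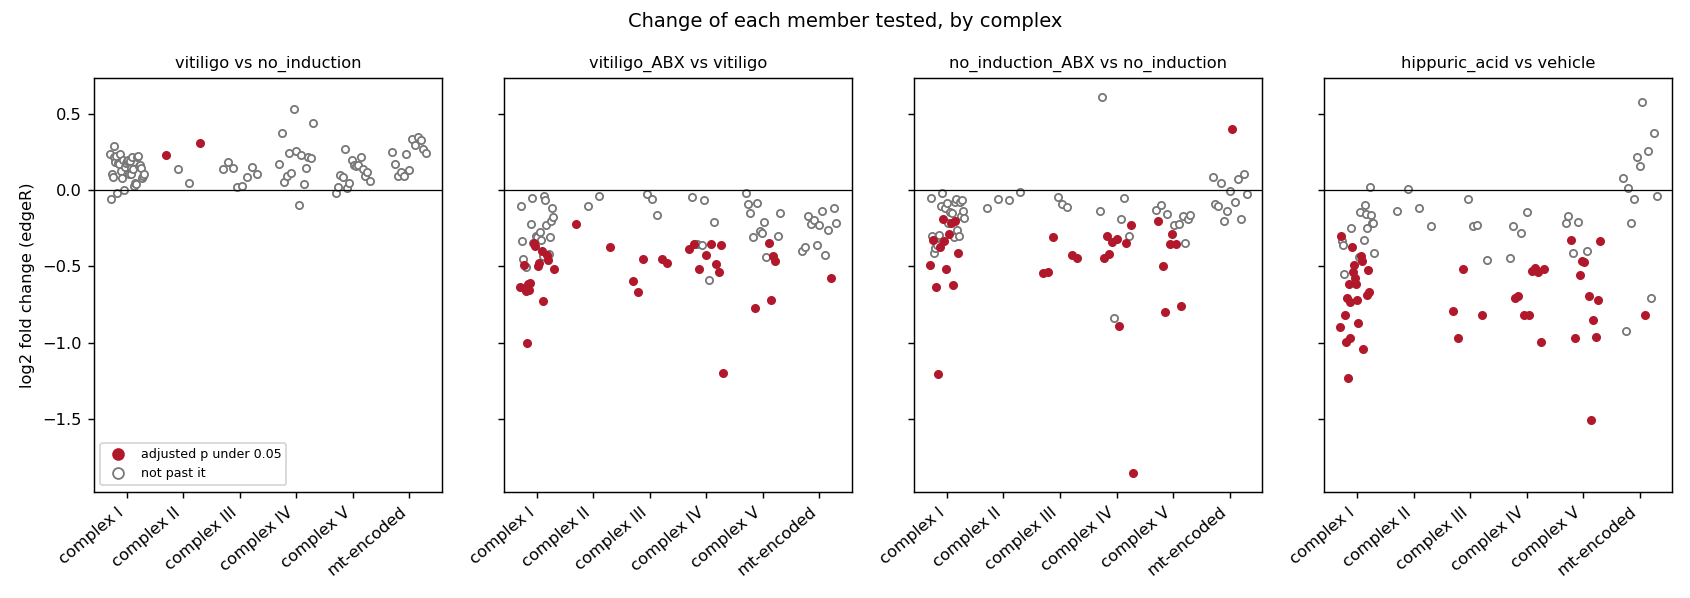
The log2 fold change (y axis) of each tested member, by complex (x axis), in the 4 comparisons of vitiligo with no induction, each antibiotic group with its own control and hippuric acid with vehicle; filled red points have an adjusted p under 0.05. Nearly all nuclear points lie below 0 in the antibiotic and hippuric acid panels, and the filled points of vitiligo against no induction are the complex II genes Sdha and Sdhd.

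Antibiotics in mice with vitiligo induction were compared with induction alone. Nuclear members of all 5 complexes fell, while the mitochondrially encoded genes passed the test in 1 case. Of all genes tested, 13.1% were called (5.06% higher, 8.05% lower), and of the 80 nuclear members 38 were called, all lower. All 80 had negative log2 fold changes, with a median of -0.36 against 0.02 over all genes. With the length and GC offsets the nuclear median was -0.18 (union of exons) and -0.08 (principal transcripts). Of all tested genes of at most 763 bases, the median length of nuclear members, 36.0% were called lower. In a bulk sample, fewer cells of a type and less RNA per cell cannot be told apart.

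In complex I, 17 of 37 members fell (median -0.40). Ndufa4, the subunit found in complex IV, ranged from 135 to 252 CPM (median 165) in vitiligo skin and from 100.4 to 125 CPM (median 119) with antibiotics. No antibiotic library reached the lowest vitiligo library, and the log2 fold change was -0.66 ± 0.13 (adjusted p = 0.00305). Its paralogue Ndufa4l2, known as a hypoxia-induced gene that lowers complex I activity, went from a median of 92.6 CPM (55.3 to 126) to 39.1 CPM (28.4 to 59.6), with a small overlap (-0.996 ± 0.20, adjusted p = 0.00317). Ndufb5, an accessory membrane subunit, went from 73.9 CPM (65.2 to 93.6) to 53.4 CPM (45.1 to 63.7) with no overlap (-0.47 ± 0.10, adjusted p = 0.00393). The remaining called members were further accessory subunits (Ndufa1, Ndufa2, Ndufa5, Ndufa6, Ndufa7, Ndufa13, Ndufb4, Ndufb9, Ndufb10, Ndufb11, Ndufc1, Ndufs4, Ndufs5 and Ndufv3), of which Ndufa6 also had no overlap. With Cox8b of complex IV, 4 of 80 nuclear members (5%) lay wholly below the vitiligo libraries. The same held for 2.03% of all genes tested and for 6.54% of those of at most 763 bases, the median length of nuclear members.

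Complex II showed the smallest median of the 5 classes (-0.16), with 2 of 4 genes called. Sdhd, with a change of -0.37 ± 0.08 (adjusted p = 0.00567), fell to a median of 61.3 CPM (51.3 to 70.6), close to the 62.8 CPM of uninduced skin. For Sdha the change was -0.22 ± 0.07 (adjusted p = 0.0385), with a median of 167 CPM (159 to 187), and this call ended on leaving out 1 library other than vitiligo 001, 006 and 062 or vitiligo ABX 003 (adjusted p up to 0.0871).

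In complex III, 5 of 8 genes fell (median -0.45): Uqcr10, Uqcr11, Uqcrb, Uqcrh and Uqcrq, which encode small accessory subunits. Uqcrh went from a median of 154 CPM (129 to 194) to 115 CPM (96.8 to 141), with overlap between the groups (-0.45 ± 0.11, adjusted p = 0.0127). Uqcr11 went from 46.2 CPM (39.1 to 82.4) to 31.4 CPM (28.8 to 50.7), with overlap (-0.67 ± 0.19, adjusted p = 0.0306), a call that ended without any 1 of the libraries Vitiligo260, Vitiligo261 and vitiligo ABX 002, 004, 005 and 006 (adjusted p up to 0.0722).

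In complex IV, 9 of 15 members fell (median -0.36): Cox4i1, Cox5a, Cox6a1, Cox6c, Cox7a2, Cox7b, Cox7c, Cox8a and Cox8b. Cox4i1 went from a median of 304 CPM (277 to 370.4) to 223 CPM (216 to 309), with 1 antibiotic library above the lowest vitiligo library (-0.38 ± 0.10, adjusted p = 0.0156). Cox7c, a small membrane subunit, went from 130.3 CPM (93.0 to 173) to 90.1 CPM (79.2 to 111), with overlap (-0.53 ± 0.13, adjusted p = 0.0123). The low-level muscle form Cox8b, at 0.879 CPM (0.566 to 1.89) in vitiligo skin and 0.458 CPM (0.296 to 0.505) with antibiotics, did not overlap (-1.20 ± 0.28, adjusted p = 0.01). Cox8b passed the low-count filter through the vitiligo libraries, where it is higher, so its p-value and lack of overlap give no support for a fall. Its skin counterpart Cox8a went from 160.1 CPM (142 to 209) to 125 CPM (117 to 166), with overlap (-0.36 ± 0.11, adjusted p = 0.034), and that call ended without any 1 of Vitiligo000, Vitiligo260 and Vitiligo261 or of the vitiligo ABX libraries other than 003 (adjusted p up to 0.0835).

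Of complex V, 5 of 16 genes fell (median -0.29), namely Atp5e, Atp5j2, Atp5k, Atp5l and Atp5mpl, none of them a catalytic subunit. Atp5e, the epsilon subunit of the central stalk, went from a median of 77.3 CPM (58.0 to 103) to 42.1 CPM (37.7 to 66.6), with overlap (-0.77 ± 0.15, adjusted p = 0.00312). Atp5l, the g subunit of the membrane part, went from 283 CPM (224 to 352) to 202 CPM (181 to 244), with overlap (-0.43 ± 0.10, adjusted p = 0.00922).

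All 13 mitochondrial genes had negative log2 fold changes (median -0.22, range -0.58 to -0.12), and 4 had an unadjusted p under 0.05. With the length and GC offsets this median was positive (0.11 from the union of exons and 0.06 from principal transcripts). The called one was mt-Nd4l, a small membrane subunit of complex I, with a median of 139 CPM (72.7 to 202) in vitiligo skin and 93.1 CPM (77.3 to 104) with antibiotics. The antibiotic libraries lay within the vitiligo range, and the change was -0.58 ± 0.17 (adjusted p = 0.0307; up to 0.0667 without any 1 of the libraries Vitiligo260, Vitiligo261 and vitiligo ABX 001, 002, 004 and 006). Its open reading frame overlaps that of mt-Nd4 on a shared transcript, so how reads were split between them is uncertain.

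The adipocyte markers moved here too: 12 of 12 fell, to summed levels of 459 to 1320 CPM, and 3 of 9 keratinocyte markers fell while 1 rose (17046 to 35099 CPM in vitiligo, 13600 to 23113 CPM with antibiotics). Their part in the result was not tested. Leaving out 1 library moved the nuclear count between 26 (without vitiligo ABX 005) and 59 (without vitiligo ABX 003), and 20 were called without the gut-transcript libraries. Of all genes, 8.64%, 15.4% and 6.9% were called in these fits, in that order.

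Antibiotics without vitiligo induction were compared with no induction. Here, too, nuclear members of complexes I, III, IV and V were called lower, none of complex II was called, and 1 mitochondrial gene was called higher. The background of this comparison was higher, with 31.1% of genes called (15.4% higher, 15.8% lower); of the 80 nuclear members, 34 were called, all lower, and 79 had negative log2 fold changes (median -0.27 against -0.00 over all genes). The single positive value was that of Cox4i2, a hypoxia-responsive form of subunit 4, which was not called (median 1.94 CPM without and 2.80 CPM with antibiotics). With the length and GC offsets the nuclear median was -0.07 (union of exons) and 0.05 (principal transcripts). Of all tested genes of at most 763 bases, the median length of nuclear members, 38.6% were called lower.

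In complex I, 13 of 37 members fell (median -0.26). Ndufa4l2 ranged from 64.4 to 133 CPM (median 83.5) in untreated and from 31.8 to 46.5 CPM (median 38.95) in antibiotic-treated skin. It was the only member whose groups did not overlap (-1.20 ± 0.15, adjusted p = 3.14e-05). That is 1.25% of nuclear members wholly below, less than the 4.43% of all genes tested and the 8.43% of those of at most 763 bases. Ndufc1, a small accessory subunit, went from 18.3 CPM (12.8 to 23.2) to 11.5 CPM (9.20 to 15.1), with overlap (-0.62 ± 0.14, adjusted p = 0.0036). Ndufb2 went from 27.0 CPM (22.7 to 35.1) to 19.6 CPM (16.6 to 25.4), with overlap (-0.51 ± 0.11, adjusted p = 0.00268). The called members included 1 subunit of the redox core, Ndufs1, which carries iron-sulfur clusters.

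For complex II the median was -0.06 and 0 of 4 genes were called by edgeR, 1 of them with an unadjusted p under 0.05. DESeq2 and limma-voom each called 1 lower, and called 34.5% and 46.7% of all genes. Sdha had a median of 159 CPM (142 to 163) with antibiotics against 172 CPM (157 to 178) without (-0.12 ± 0.05, adjusted p = 0.106).

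The 5 complex III genes called were again the small subunits Uqcr10, Uqcr11, Uqcrb, Uqcrh and Uqcrq (class median -0.37). Uqcr10 went from 67.2 CPM (47.7 to 91.4) to 41.3 CPM (34.8 to 59.7), with overlap (-0.54 ± 0.16, adjusted p = 0.0172; -0.40 and 0.0521 without the libraries with Y-linked transcripts). Uqcrh went from 143 CPM (116 to 188) to 103 CPM (89.4 to 146), with overlap (-0.43 ± 0.12, adjusted p = 0.0126). With the length and GC offset from the union of exons, Uqcr10 was at 0.23 and Uqcrh at -0.16. With that from principal transcripts they were at 0.14 and 0.0492.

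In complex IV, 9 of 15 members fell (median -0.32): Cox5a, Cox5b, Cox6a1, Cox6b1, Cox6c, Cox7a1, Cox7b, Cox8a and Cox8b. Cox5a, a matrix-side subunit, went from 81.0 CPM (59.2 to 85.5) to 54.5 CPM (48.1 to 65.4), with overlap (-0.45 ± 0.10, adjusted p = 0.00235). The low muscle forms Cox8b (0.734 CPM, 0.311 to 1.36, against 0.185 CPM, 0.104 to 0.344) and Cox7a1 (0.830 CPM, 0.489 to 1.40, against 0.469 CPM, 0.324 to 0.640) had the largest changes of the class, -1.86 ± 0.38 (adjusted p = 0.00177) and -0.89 ± 0.27 (adjusted p = 0.0194). Both rest on few counts. They failed the low-count filter where only antibiotic groups were compared, so they passed it here through the untreated libraries, where they are higher. Under such a filter a rise could hardly be found, so their p-values give no support for a fall. Cox8b was tested in 9 of the 15 fits without 1 library. Cox8a went from 146 CPM (125 to 178) to 123 CPM (114 to 148), with overlap (-0.23 ± 0.08, adjusted p = 0.0437), and its call ended in 11 of 15 fits without 1 library (adjusted p up to 0.102), all but those without no-induction 001, 002 and 003 and no-induction ABX 006. It also ended with no low-count filter (adjusted p = 0.0519), in one fit of all 38 libraries (adjusted p = 0.0558) and without the libraries with Y-linked transcripts (-0.17, adjusted p = 0.112), and turned to 0.48 and 0.32 with the length and GC offsets from the union of exons and from principal transcripts. Skeletal muscle markers summed to 3.42 to 23.2 CPM over all libraries, and 0 of the 2 tested here were called by edgeR. Cox8b and Cox7a1 are also known from brown fat, whose defining gene Ucp1 reached at most 0.517 CPM in any library. The other brown adipocyte markers listed were higher, Cidea at 53.9 to 154 CPM and Elovl3 at 88.3 to 322 CPM over all libraries. The part of brown fat in these changes was not tested.

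In complex V, 7 of 16 members fell (median -0.23), among them Atp5b, which carries the catalytic sites, and the c-subunit genes Atp5g2 and Atp5g3. Atp5d, the delta subunit of the central stalk, went from 153 CPM (121 to 199) to 104 CPM (94.0 to 124), with overlap (-0.50 ± 0.11, adjusted p = 0.00227). Atp5k, the e subunit of the membrane part, went from 21.8 CPM (13.7 to 26.7) to 11.6 CPM (8.36 to 17.1), with overlap (-0.76 ± 0.17, adjusted p = 0.00288). With the length and GC offsets from the union of exons and from principal transcripts, Atp5k was at -0.03 and 0.00798. Atp5e went from 58.6 CPM (48.0 to 93.1) to 34.2 CPM (25.8 to 58.5), with overlap (-0.80 ± 0.19, adjusted p = 0.00495).

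Among the mitochondrial genes, 5 log2 fold changes were positive and 8 negative (median -0.03, range -0.20 to 0.40). Their median was 0.37 and 0.09 with the length and GC offsets from the union of exons and from principal transcripts. Without the libraries with Y-linked transcripts it was 0.11, and that of the nuclear members was -0.18 in place of -0.27. mt-Nd2, a membrane subunit of complex I, rose from a median of 831 CPM (643 to 1209) to 1148 CPM (994 to 1287), with overlap (0.40 ± 0.13, adjusted p = 0.0298). This call ended without any 1 of no-induction 021, 022 and 023 and no-induction ABX 004, 005 and 006 (adjusted p up to 0.0584). mt-Nd4l, called in the induced mice, had medians of 116 CPM (67.1 to 155) and 98.9 CPM (75.8 to 113) here (-0.19 ± 0.17, adjusted p = 0.417).

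The 12 adipocyte markers also fell (654 to 2024 CPM in sum without, 355 to 691 CPM with antibiotics), and of the 9 keratinocyte markers 3 fell and 1 rose (20502 to 45806 against 13710 to 26360 CPM); their part in the result was not tested. The nuclear count was 15 without the Y-linked libraries, which were also those of this comparison with the gut transcript. In that fit 27.6% of all genes were called, with 1870 of 13902 lower. On leaving out 1 library, the nuclear count lay between 18 (without no-induction ABX 002, and 19 without 001 or without 005) and 42 (without no-induction ABX 006). Of all genes, 24.9% were called without no-induction ABX 002 and 30% without 006.

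Whether antibiotics acted differently with and without induction was tested as an interaction over the 4 groups. Of all genes, 11.5% were called (6.68% with a positive and 4.77% with a negative term); of the members, 1 was, namely Sdhd, with a term of -0.37 ± 0.11 (adjusted p = 0.026). Sdhd medians were 62.8 and 61.3 CPM without and with antibiotics in uninduced mice, and 79.9 and 61.3 CPM in induced mice. The call ended without vitiligo ABX 002 (adjusted p = 0.0601) or no-induction ABX 006 (adjusted p = 0.0565). It also ended without vitiligo ABX 001 to 003 (adjusted p = 0.0625) and with a block on library number (-0.20, adjusted p = 0.731). For the other 79 nuclear members and the 13 mitochondrial genes the test made no call in edgeR, with an unadjusted p under 0.05 for 2 nuclear members in all and 1 mitochondrial gene. In limma-voom, 10 nuclear and 1 mitochondrial members were called in all, and in DESeq2 1 of each. Of all genes, limma-voom called 31% and DESeq2 14.4%. All 13 mitochondrial terms were negative (median -0.29), the largest that of mt-Nd2 (-0.56 ± 0.20, adjusted p = 0.0687); with the length and GC offsets the median was -0.11 (union of exons) and 0.02 (principal transcripts).

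Between the antibiotic groups, vitiligo ABX against no-induction ABX, 4.97% of all genes were called (3.72% higher, 1.25% lower), and 1 of 78 nuclear and 0 of 13 mitochondrial members were. Cox6b2, the testis form of a complex IV subunit, rose from a median of 0.415 CPM (0.188 to 0.574) to 1.12 CPM (0.708 to 1.36) with no overlap (1.31 ± 0.29, adjusted p = 0.0205). It rests on few counts and passed the low-count filter mainly through the vitiligo ABX libraries, so its p-value and lack of overlap give no support for a rise. Of nuclear members 1.28% lay wholly above in this way, against 2.16% of all genes tested. Leaving out no-induction ABX 002 (adjusted p = 0.0617) or 005 (adjusted p = 0.0506) ended that call. Unadjusted p-values under 0.05 in edgeR numbered 5 nuclear and 0 mitochondrial, with medians of 0.05 and -0.05 (74.9% of all called genes were higher, and 51.7% with a length and GC offset), and DESeq2 and limma-voom called 0 mitochondrial genes. Sdha, with medians of 159 and 167 CPM, was not called (0.12 ± 0.07, adjusted p = 0.338).

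Hippuric acid was compared with vehicle in wild-type mice, which received neither induction nor antibiotics. Nuclear subunits of complexes I, III, IV and V fell, while complex II and most mitochondrially encoded genes were not called. Of all genes, 13.8% were called (5.48% higher, 8.29% lower); of 78 nuclear members 46 were called, all lower, 76 had negative log2 fold changes, and the median was -0.48 against 0.02 over all genes. Of the members, 56, the mitochondrial mt-Nd3 among them, had all 5 hippuric acid libraries below all 3 vehicle libraries. The same held for 12.6% of all 14097 genes tested and for 40.9% of the 425 tested genes whose principal transcript has at most 763 bases, the median length of the nuclear members. Higher genes made up 39.8% of all called genes, and 29.7% with a length and GC offset from principal transcripts. Without vehicle 001, the library with Y-linked and gut transcripts, 38 nuclear members were called lower and the nuclear median was -0.30. In that fit 19.6% of all genes were called. With the length and GC offsets on all libraries of the pair, the nuclear median was -0.31 (union of exons) and -0.21 (principal transcripts). Of all tested genes of at most 763 bases, 34.8% were called lower in the main fit. The sizes of the hippuric acid and antibiotic effects were not tested against each other.

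Complex I had 22 of 37 members called (median -0.49). Ndufb4, an accessory membrane subunit, had 124, 109 and 89.2 CPM in the vehicle libraries and 53.5, 65.4, 52.8, 59.2 and 62.8 CPM with hippuric acid. The groups did not overlap, and the change was -0.87 ± 0.12 (adjusted p = 0.00158). Ndufc1 had 22.8, 18.4 and 13.9 CPM with vehicle and 8.68, 10.2, 8.11, 8.79 and 9.02 CPM with hippuric acid, again without overlap (-1.04 ± 0.16, adjusted p = 0.0028). Ndufa4l2 had 140.2, 64.2 and 77.0 CPM with vehicle and 43.6, 48.3, 37.8, 38.1 and 32.1 CPM with hippuric acid. These groups did not overlap either, although the first vehicle library stood well above its group (-1.23 ± 0.23, adjusted p = 0.00749; -0.80 without it).

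None of the 4 complex II genes was called by edgeR, DESeq2 or limma-voom (median -0.13, 1 with an unadjusted p under 0.05 in edgeR). Their principal transcripts have 1142 to 3171 bases, above the 763-base median of the nuclear members. Sdhd had 76.1, 64.6 and 60.1 CPM with vehicle and 56.8, 57.3, 52.9, 62.9 and 54.3 CPM with hippuric acid, with overlap. Its change was -0.24 ± 0.10 (adjusted p = 0.148), with a 95% interval of -0.44 to -0.04.

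In complex III the called genes were Uqcr10, Uqcr11, Uqcrb and Uqcrh (median of 8 genes -0.48). Uqcrh had 177, 147 and 106 CPM with vehicle and 82.4, 83.4, 77.8, 79.8 and 83.7 CPM with hippuric acid, without overlap (-0.82 ± 0.14, adjusted p = 0.0037). Uqcr11 had 64.6, 40.8 and 33.3 CPM with vehicle and 24.7, 21.5, 24.1, 21.9 and 26.2 CPM with hippuric acid, without overlap (-0.97 ± 0.18, adjusted p = 0.00667; -0.62 without vehicle 001). The vehicle libraries spread more widely than the hippuric acid libraries for both genes.

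In complex IV, 9 of 13 members fell (median -0.53): Cox5a, Cox5b, Cox6b1, Cox6c, Cox7a2, Cox7a2l, Cox7b, Cox7c and Cox8a. Cox7c had 132, 122 and 81.6 CPM with vehicle and 59.0, 56.6, 47.6, 58.8 and 58.2 CPM with hippuric acid, without overlap (-1.002 ± 0.14, adjusted p = 0.00191). Cox5a had 77.4, 73.1 and 66.5 CPM with vehicle and 43.3, 44.0, 45.1, 42.9 and 46.7 CPM with hippuric acid, without overlap (-0.71 ± 0.09, adjusted p = 0.00115). Cox8a had 188, 122 and 139.7 CPM with vehicle and 103, 109.9, 101, 103 and 109 CPM with hippuric acid (-0.51 ± 0.13, adjusted p = 0.0235), a call that ended without any 1 of hippuric acid libraries 1, 3 and 4; without vehicle 001 the change was -0.29 (adjusted p = 0.034). Cox8b, too low to test, had 0.784, 0.0676 and 0.441 CPM with vehicle and 0.409, 0.378, 0, 0.0916 and 0.0485 CPM with hippuric acid.

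Complex V had 11 of 16 members called (median -0.47), among them the peripheral stalk genes Atp5h, Atp5o and Atp5pb and the gamma subunit gene Atp5c1. Atp5k had 19.4, 18.5 and 13.7 CPM with vehicle and 7.10, 6.42, 5.46, 6.04 and 5.24 CPM with hippuric acid, without overlap (-1.51 ± 0.16, adjusted p = 0.000663). Atp5mpl, a small proteolipid of the membrane part, changed by -0.96 ± 0.14 (adjusted p = 0.00213), and Atp5l by -0.85 ± 0.13 (adjusted p = 0.00223). The catalytic genes Atp5a1 and Atp5b were not called.

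The mitochondrially encoded genes split by sign, with 7 positive and 6 negative log2 fold changes (median 0.02, range -0.93 to 0.58). mt-Nd3, a membrane subunit of complex I, had 489, 738 and 349 CPM with vehicle and 309.7, 345, 266, 312 and 260.2 CPM with hippuric acid. The groups did not overlap by a narrow margin, and the change was -0.82 ± 0.20 (adjusted p = 0.0241), which became -0.50 (adjusted p = 0.0736) without vehicle 002 and was not called without hippuric acid 3 (0.0577) or 5 (0.0516). mt-Nd2 had 753, 1161 and 618 CPM with vehicle and 1216, 1407, 1269, 1457 and 959.8 CPM with hippuric acid, with overlap (0.58 ± 0.21, adjusted p = 0.091). mt-Nd4l (-0.71 ± 0.25, adjusted p = 0.0877) and mt-Atp8 (-0.93 ± 0.34, adjusted p = 0.11), an ATP synthase subunit, had negative values that were not called.

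**Figure D3:**
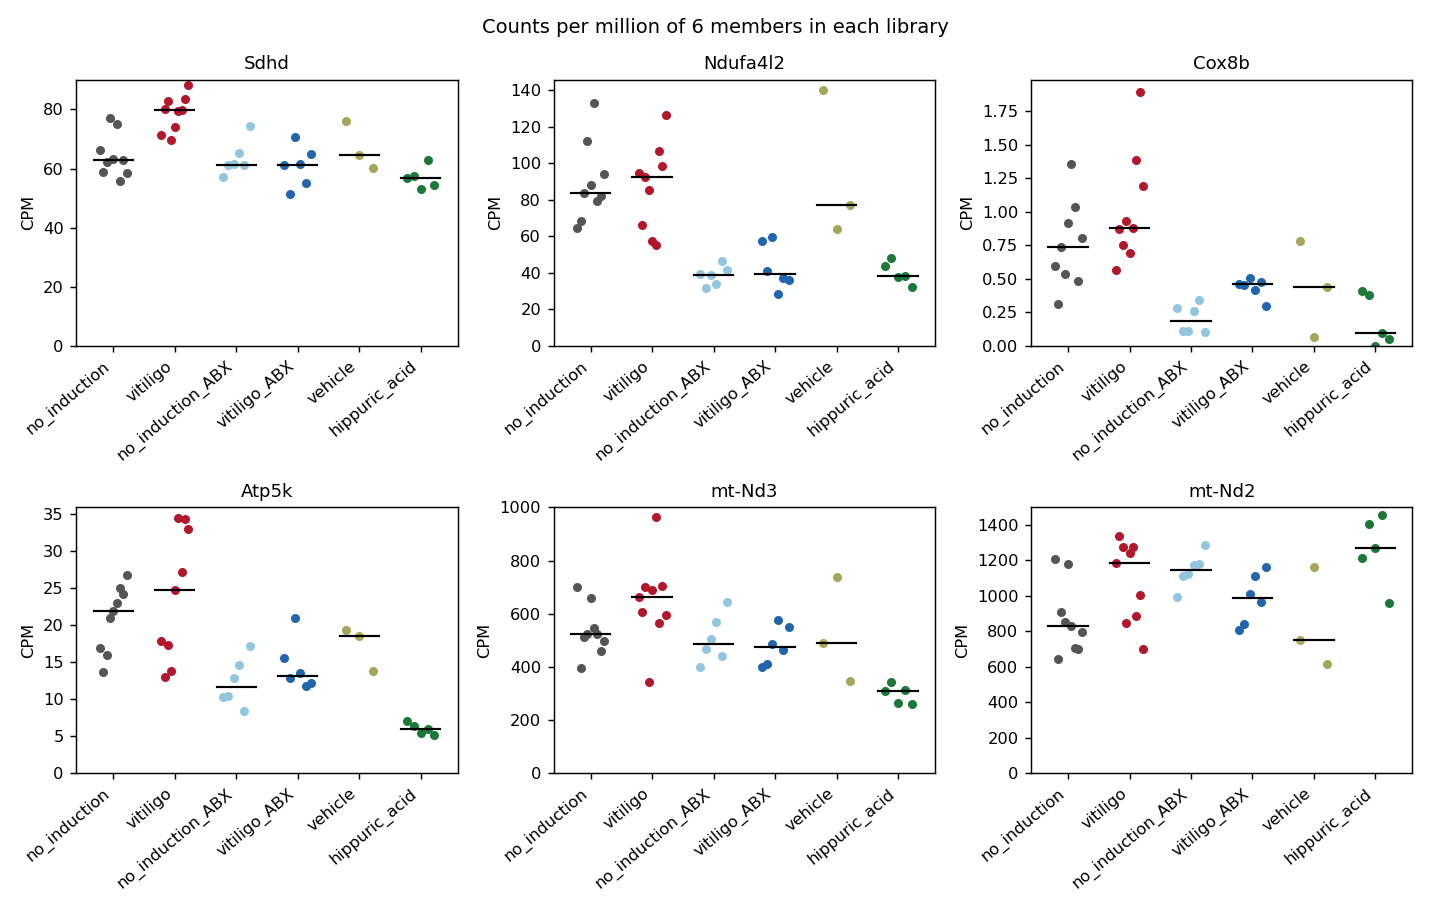
Levels in CPM (y axes) of Sdhd, Ndufa4l2, Cox8b, Atp5k, mt-Nd3 and mt-Nd2 in each of the 38 libraries, by group (x axis), with bars at the group medians. Sdhd is highest in the vitiligo group (median 79.9 CPM), Ndufa4l2 lies under 60 CPM in every library of the antibiotic and hippuric acid groups, and mt-Nd2 has its lowest median, 753 CPM, in the vehicle group.

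Adipocyte markers fell in this comparison as well (10 of 12 called, sums of 2357 to 2843 CPM with vehicle and 443 to 1320 CPM with hippuric acid), as did 5 of 9 keratinocyte markers (30767 to 43483 against 12175 to 15839 CPM). Their part in the result was not tested. The nuclear count lay between 32 (without hippuric acid 1) and 47 (without vehicle 003) on leaving out 1 library. Of all genes, 8.66% and 9.89% were called in these fits.

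The 3 treatment comparisons (antibiotics with induction, antibiotics without it, hippuric acid) share no libraries, and 16 of 91 members tested in each were called lower in all of them (17.6%). The same held for 2.34% of all genes tested in each, and for 17.6% of those of at most 763 bases. These were Ndufa1, Ndufa4l2, Ndufa7, Ndufb10, Ndufc1 and Ndufs5 of complex I, Uqcr10, Uqcr11, Uqcrb and Uqcrh of complex III, Cox5a, Cox6c, Cox7b and Cox8a of complex IV, and Atp5e and Atp5k of complex V. For Cox8a, the call with antibiotics without induction ended in 11 of 15 fits without 1 library. No complex II gene and no mitochondrial gene was among them. The antibiotic comparisons had 20 lower calls in common, 51.3% of the 39 with induction and 58.8% of the 34 without. Antibiotics with induction shared 29 with hippuric acid (74.4% of 39 and 61.7% of 47), and antibiotics without induction shared 24 (70.6% of 34 and 51.1% of 47). Over all genes, the corresponding shares of lower calls were 43.4% and 22.3% for both antibiotic comparisons, 44.5% and 43% for antibiotics after induction with hippuric acid, and 29.4% and 55.5% for antibiotics without induction with hippuric acid. Over genes of at most 763 bases they were 57.1% and 53.3%, 68.8% and 71.6%, and 57% and 63.5%.

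Within complex III, the larger subunits at its core stood apart from the small ones in their calls. This grouping was chosen after the values were seen and gets no test of its own. Uqcrc1 and Uqcrc2, the core proteins, and Uqcrfs1, the Rieske iron-sulfur protein, had 0 lower calls by edgeR in each of the 3 treatment comparisons (in the order above), with medians of -0.05, -0.09 and -0.23. Unadjusted p-values under 0.05 in edgeR numbered 0, 0 and 2 for these 3 genes, DESeq2 called 0, 0 and 1 lower, and limma-voom called 0 in each of the 3. The other 5 complex III genes had 5, 5 and 4 lower calls with medians of -0.48, -0.45 and -0.80.

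The same split runs along transcript length: principal transcripts of the core proteins and the Rieske protein are 1363 to 1896 bases long, against a median of 535 bases for the other 5 complex III genes. Across nuclear members, the log2 fold change and the length had a Spearman rho of 0.64 with antibiotics after induction (n = 80 genes measured in the same libraries), 0.61 without induction (n = 80) and 0.62 with hippuric acid (n = 78). In vitiligo against no induction, where 2 members were called, rho was -0.45. Of nuclear members of at most 763 bases, the median length, 24 of 39 fell with antibiotics after induction, against 14 of 41 longer ones (medians -0.43 and -0.23). Without induction 22 of 39 against 12 of 41 fell (medians -0.34 and -0.16), and with hippuric acid 29 of 37 against 17 of 41 (medians -0.67 and -0.33).

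Short transcripts of all kinds were called lower often: of all tested genes with at most 763 bases, 36.0% of 428 fell with antibiotics after induction, 38.6% of 427 without induction and 34.8% of 425 with hippuric acid. Among the 13 mitochondrial genes rho was 0.69, 0.32 and 0.82. The shortest of these genes are mt-Atp8 (204 bases), mt-Nd4l (297 bases) and mt-Nd3 (348 bases), the same that hold the calls and the lowest values with hippuric acid. With each gene's length and GC content fitted as an offset (union of exons), nuclear medians were -0.18, -0.07 and -0.31, and with the principal transcript they were -0.08, 0.05 and -0.21. Under the latter, the nuclear members called were 6 lower with antibiotics after induction, 14 higher and 10 lower without induction, and 28 lower with hippuric acid. Of all genes tested under that offset, 11.3%, 34.4% and 15.5% were called in either direction. The genes called lower numbered 960 of 14014, 2432 of 13971 and 1535 of 14097. What lies behind the relation with length was not tested.

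**Figure D4:**
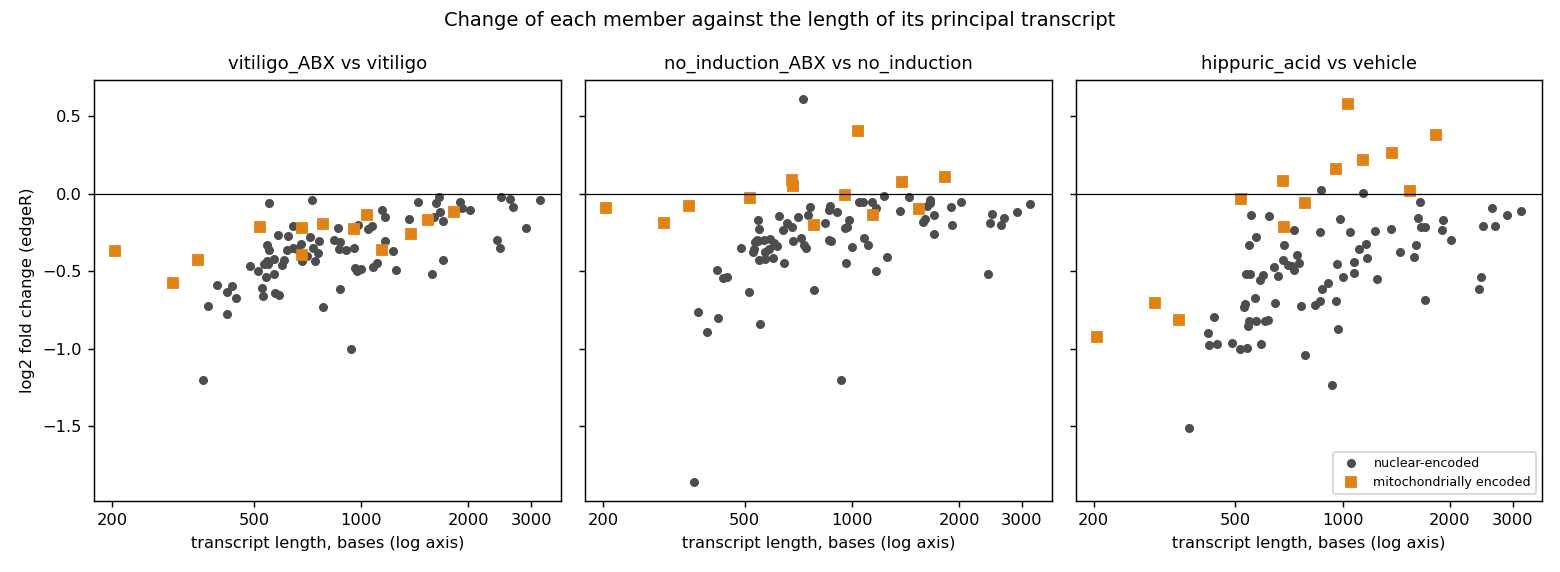
The log2 fold change (y axis) of each tested member against the length of its principal transcript in bases (x axis, log scale) for antibiotics with and without induction and for hippuric acid; circles are nuclear and squares mitochondrially encoded genes. Shorter members lie lower in each panel, with Spearman rho of 0.64, 0.61 and 0.62 over the nuclear members.

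The rest of the respiratory pathway was described from lists of genes outside the rule. Over all genes tested, 5.27% were called higher with induction. In the 3 treatment comparisons, in the order above, 8.05%, 15.8% and 8.29% of all genes were called lower and 5.06%, 15.4% and 5.48% higher. These shares are the background of each list count below. Of 12 further subunits and electron carriers, 1 rose with induction, and 2, 3 and 3 fell with antibiotics after induction, antibiotics without induction and hippuric acid. Etfb, the beta subunit of the flavoprotein that brings electrons from fatty acid oxidation to ubiquinone, rose with induction (0.37 ± 0.08, adjusted p = 0.00935). Uqcc2, which helps make cytochrome b of complex III, fell in each treatment comparison (-0.89 ± 0.21, adjusted p = 0.0104; -0.74 ± 0.15, adjusted p = 0.00181; -0.97 ± 0.20, adjusted p = 0.00981, and -0.61 without vehicle 001). Of 39 assembly factors, 1 rose with induction, and in the treatment comparisons 3, 6 and 4 fell while 0, 2 and 0 rose.

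Of 19 genes of mitochondrial transcription and its regulators, 0 were called with induction by edgeR, and 1, 2 and 1 fell while 0, 1 and 0 rose in the treatment comparisons. Slirp, an RNA-binding protein that stabilises mitochondrial mRNAs, fell with antibiotics after induction (-0.68 ± 0.15, adjusted p = 0.00705) and with hippuric acid (-0.95 ± 0.22, adjusted p = 0.0174; 0.0553 without vehicle 002). Pprc1, a coactivator of nuclear respiratory genes, fell with antibiotics without induction (-0.58 ± 0.11, adjusted p = 0.00113). Of 13 citric acid cycle genes, which feed complexes I and II, 1 rose with induction, and 0, 4 and 0 fell while 0, 1 and 0 rose. Suclg1, a subunit of the enzyme that makes succinate, fell with antibiotics without induction (-0.32 ± 0.07, adjusted p = 0.00217).

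Of 77 mitochondrial ribosomal protein genes, 9, 16 and 15 fell in the treatment comparisons, and 1 rose with induction. Over all genes tested, 8.05%, 15.8% and 8.29% fell, and 5.27% rose with induction. Of 73 cytosolic ribosomal protein genes, another set of short transcripts, 59, 36 and 46 fell (medians -0.45, -0.33 and -0.58) and 0 were called with induction (median 0.07).

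Markers of other cells that tail skin could hold were counted in the same way. Of 6 fibroblast markers, 2 rose and 1 fell with antibiotics without induction, 1 rose with hippuric acid and 0 were called by edgeR with induction or with antibiotics after it. Of the skeletal muscle markers tested, 1 of 3 rose with induction, 1 of 5 fell with antibiotics after it and 1 of 5 rose with hippuric acid. Of 2 tested brown adipocyte markers, edgeR called 0 in the 4 comparisons drawn in the plot of changes by complex, and of 4 tested gastrointestinal markers it called 1, which fell with antibiotics without induction. The part of these cells in the members' results was not tested.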

How the data were processed

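Bulk RNA of tail skin was sequenced in 38 libraries of 6 groups, taken from the sample titles. The labels' protocols name Trizol for extraction, oligo(dT) for selection and an Illumina NovaSeq instrument. The deposited table holds estimated counts per gene that the authors made from their reads; per the submitters' processing notes, Bowtie2 2.2.8, HISAT2, StringTie 1.3.1 and DESeq2 were used, with no roles given. The genome build, the counting program and strand use are not given in the sources used here. Of 19220 rows, 1 incomplete row and 1 with no symbol were left out. Values were rounded to whole counts (16.2% of genes held a value that was not whole; no library total moved by more than 22.1 counts). Library totals of 15341831 to 27920844 counts limit precision for members under about 1 CPM.

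Each comparison was fitted with edgeR 4.0.16 (R 4.3.3; quasi-likelihood F test, TMM factors, filterByExpr, robust) on its own groups, the interaction on 4 groups, and p-values were adjusted over all genes tested. CPM used TMM-scaled totals. The members, gene lists and tests were chosen with earlier results of these data known. Named per class and comparison were the 3 members of smallest p and the called member of largest change, all of complex II, the mitochondrial genes, tissue isoforms, members that failed the filter, and the highest and lowest in level; other called members are listed to account for them. Other lists (further subunits and carriers, assembly factors, mitochondrial transcription, citric acid cycle, ribosomal proteins, and markers of adipocytes, brown adipocytes, muscle, keratinocytes, fibroblasts and gut) are reported by counts, with up to 3 genes of smallest p. Y-linked genes served only to find libraries that stood apart (0 tested).

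Alternatives were DESeq2 1.42.0 and its size factors, limma-voom 3.58.1 with quality weights, no filter, all 38 libraries in one fit, library totals without mitochondrial genes, a length and GC offset (spline with 4 degrees of freedom), a block on library number, and leaving out each library. Lengths came from GENCODE M21, as the union of exons and, per kb and in the length relation, as the principal transcript. The scripts were tested on simulated data. No pair of replicates was close to sampling noise (chi-square per degree of freedom at least 7.33), but some groups held subsets of closer libraries. Pairs among no-induction 021, 022 and 023 gave 7.33 to 12.7, against 30.3 to 102 with the other no-induction libraries. Pairs among vitiligo ABX 004, 005 and 006 gave 20.9 to 27.5, against 53.4 to 92.1 with 001 to 003. What these subsets reflect was not tested, and the fits took all libraries as independent.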

Additional observations from a re-analysis of the deposited data

Results flagged for a closer look

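In 15 of 225 sets of values (a gene's CPM or a complex's mean level within 1 group), 1 library stood apart from its group by Dixon's criterion, which chance meets in about 5%. Vitiligo ABX 003 was the highest of its group for Atp5e (66.6 CPM), Cox4i1 (309 CPM), Cox8a (166 CPM), Ndufb2 (36.0 CPM) and Uqcr10 (63.5 CPM), and for the complex IV level, a mean log2(CPM + 1) of 4.33. Vitiligo 001 was the highest for the mitochondrial genes mt-Co3 (10663 CPM), mt-Nd4 (3894 CPM) and mt-Nd5 (2630 CPM). The same library had the highest share of mitochondrial counts (6.68%) and the lowest fibroblast sum (3967 CPM). No-induction ABX 006 was the highest for Ndufb3 (53.0 CPM) and mt-Co3 (7057 CPM). No-induction 011, a library with Y-linked and gut transcripts, was the highest for mt-Atp8 (258 CPM), and no-induction 005 for the complex II level (6.71). The low libraries were vitiligo 062 for Atp5mpl (49.8 CPM) and hippuric acid 3 for Cox7c (47.6 CPM).

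Sdhd was called for the interaction of induction and antibiotics in the 4-group edgeR fit (-0.37 on the log2 scale, adjusted p = 0.026), where 11.5% of all genes were called. In edgeR the call ended without vitiligo ABX 002 (adjusted p = 0.0601) or no-induction ABX 006 (adjusted p = 0.0565). It also ended without vitiligo ABX 001 to 003 (adjusted p = 0.0625) and with a block on library number (-0.20, adjusted p = 0.731).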

How the results depend on the processing

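No alternative gave a nuclear call in the higher direction for antibiotics after induction or for hippuric acid, but the counts moved. Main counts were, in the order vitiligo, antibiotics after induction, antibiotics without induction, antibiotic groups against each other, hippuric acid and interaction, 2, 38, 34, 1, 46 and 1 nuclear and 0, 1, 1, 0, 1 and 0 mitochondrial members. DESeq2 called 4 mitochondrial genes with hippuric acid (1 higher, 3 lower), 2 with antibiotics after induction and 1 in the interaction. Of all genes, it called 19.3%, 17.4% and 14.4% there. With limma-voom the nuclear counts were 21 for vitiligo, 61 for antibiotics after induction, 4 between the antibiotic groups and 10 in the interaction, and the mitochondrial ones 4 for vitiligo, 0 for hippuric acid and 1 in the interaction. Of all genes, limma-voom called 42.4% for vitiligo, 31.3% for antibiotics after induction, 10.8% between the antibiotic groups, 11.6% with hippuric acid and 31% in the interaction. All 38 libraries in one fit gave 2 mitochondrial calls for antibiotics after induction (19.1% of all genes were called). The length and GC offset (union of exons) gave 14 nuclear and 0 mitochondrial calls for antibiotics after induction, 29 nuclear (12 higher, 17 lower) and 7 mitochondrial (higher) without induction, 5 nuclear between the antibiotic groups (4 lower), 1 mitochondrial with hippuric acid (higher), and 10 nuclear and 1 mitochondrial in the interaction. Of all genes, 12.2%, 34.5%, 8.61%, 16.5% and 14.8% were called in these comparisons, in that order. The offset from principal transcripts, chosen after seeing the data like the library sets below, gave 6 and 0 for antibiotics after induction, 24 (14 higher) and 4 (higher) without it, 4 nuclear between the antibiotic groups (3 lower), 28 and 1 (higher) with hippuric acid, and 10 nuclear in the interaction. Of all genes, 11.3%, 34.4%, 9.3%, 15.5% and 14.8% were called in these comparisons, in that order. Genes that changed sign without induction under the principal-transcript offset were Atp5k (0.00798), Cox6b1 (0.12), Cox8a (0.32), mt-Nd4l (0.53), Uqcr10 (0.14), Uqcrb (0.0293) and Uqcrh (0.0492), and under the union offset Cox6b1 (0.27), Cox8a (0.48), mt-Co3 (0.14), mt-Nd4l (0.88) and Uqcr10 (0.23). After induction they were Cox8a (0.0189), mt-Nd3 (0.16) and mt-Nd4l (0.0479), and mt-Nd3 (0.15) and mt-Nd4l (0.0142); with hippuric acid mt-Nd4l (0.0852, principal) and Sdhd (0.0191, union). Without the Y-linked libraries the nuclear counts were 7 for vitiligo (9.86% of all genes called), 15 for antibiotics without induction (27.6%) and 3 in the interaction (12.7%), and the mitochondrial ones 1 for vitiligo and 1 in the interaction. Without the gut-transcript libraries they were 1 for vitiligo (3.7% of all genes called), 20 and 0 (mitochondrial) for antibiotics after induction (6.9%) and 15 without it (27.6%). Without vitiligo ABX 001 to 003 they were 0 mitochondrial for antibiotics after induction (15.8% of all genes called), 3 nuclear between the antibiotic groups (2 lower, with 3.21% of all genes called) and 0 in the interaction (4.28%). The cause of these shifts was not tested. Leaving out 1 library gave nuclear counts of 2 to 3, 26 to 59, 18 to 42, 0 to 2, 32 to 47 and 0 to 2 in the order above, and mitochondrial counts of 0 to 1, 0 to 3, 0 to 1, 0 to 0, 0 to 2 and 0 to 1. Library numbers were shared between groups, but correlations of same-numbered libraries ran from -0.20 to 0.39, so the numbers were not taken as a pairing. The replicate block left 0 nuclear and 0 mitochondrial calls for antibiotics after induction (2 shared numbers, with 1.11% of all genes called, nuclear median -0.49, mitochondrial -0.58). It left 12 and 0 without induction (10.3% of all genes called) and 24 nuclear with hippuric acid (6.29%), and mt-Nd4l was at 0.20 without induction. Added after seeing the data, the block in the interaction left 0 calls among members and 0% of all genes (nuclear median -0.33). The vitiligo comparison shared 1 number, too few for such a fit. Over the named genes, the alternatives other than leaving out 1 library kept direction and side of the threshold in 740 cases, lost a call in 84, gained one in 22 and changed sign in 20.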
